A study of Mus musculus with 12 samples.

Results

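High-dose PQQ was compared with saline in the hippocampus of naturally aged mice, using the 4 libraries labelled H (PQQ-H) and the 3 labelled C (CON) out of 12 libraries in all. Every gene with a mean FPKM of at least 0.5 over these 7 libraries was included, which gave 13862 of the 27833 genes in the table. FPKM, a fragment count for each gene, is already scaled for gene length and library size. PQQ (pyrroloquinoline quinone) is a redox-active quinone found in foods, studied for its effects on mitochondria. The mice were male wild-type C57BL/6J aged 20 months, housed alike, and gavaged daily for 14 days with 10 mg/kg/day of PQQ in normal saline (PQQ-H) or with normal saline alone (CON). The PQQ-L group at 5 mg/kg/day (5 libraries) was used to estimate the spread between libraries and for the direct comparison of the doses. The question was which hippocampal genes differ after the higher dose. The labels do not say whether each library came from its own mouse, so the p-values measure the spread between libraries. Of the genes tested, 13465 had a mean of at least 0.5 FPKM in both groups, 287 passed through the CON mean alone and 110 through the PQQ-H mean alone. Slc22a18 lay just inside the limit at 0.50017 FPKM and Celsr1 just outside it at 0.49927.

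The hippocampus is the folded cortical region of spatial and episodic memory, with pyramidal neurons in the CA fields and granule neurons in the dentate gyrus. It borders the lateral ventricle, where the choroid plexus, a secretory epithelium on a vascular stroma, makes cerebrospinal fluid, and where ciliated ependymal cells line the wall. Striatum and thalamus lie close by. In bulk tissue, fewer cells of a type and less RNA per cell cannot be told apart.

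Library depth was similar in the groups, with 29654553 to 35517505 reads on genes in CON and 32395680 to 35221896 in PQQ-H. Markers of hippocampal neurons differed between libraries. The summed level of 21 pyramidal genes was between 327 and 522 FPKM in CON and between 387 and 682 FPKM in PQQ-H, and that of 16 dentate genes between 78.2 and 272 FPKM in CON and between 115 and 320 FPKM in PQQ-H. CON 1 was the lowest library for both sums, and Ptpn5, a phosphatase gene that striatal neurons also use, gave 117 of its 327 FPKM, while Neurod6 of CA pyramidal neurons was at 2.30 FPKM in CON 1 against 78.9 FPKM in CON 2. Genes of striatal medium spiny neurons stood apart in both groups. The sum of 24 such genes was 5062 FPKM in CON 1, 2130 FPKM in CON 3, 3913 FPKM in PQQ-H 1 and 2090 FPKM in PQQ-H 2, against 187, 200 and 349 FPKM in CON 2, PQQ-H 3 and PQQ-H 4. High and low libraries therefore occurred on both sides of the comparison. Counts given first below were also taken without CON 1 and PQQ-H 1, the library with the highest striatal sum in each group, a choice made after seeing the data.

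PQQ-H differed from CON almost entirely through genes with lower levels. At a |log2FC| above 1 and an adjusted p below 0.05, 120 genes (0.866% of those tested) were called lower and 0 were called higher. Without the size limit, 160 genes were lower (1.15%) and 2 were higher (0.0144%). Before adjustment, p was below 0.05 for 1109 lower genes (8.0%) and for 254 higher genes (1.83%), and voom on recovered reads called 123 genes. The median log2FC over all genes tested was −0.03, and 7754 of them (55.9%) had a log2FC below 0. With median-of-ratios scaling 101 genes were called. Among the 120 genes, 54 had a log2FC between −1 and −2, 30 between −2 and −3, 16 between −3 and −4, and 20 below −4. All 4 PQQ-H libraries were below all 3 CON libraries for 119 of them, against 805 of all genes tested (5.81%). The exception was Ifitm3, where PQQ-H 2 overlapped CON 2. CON 3 had the highest level for 108 of the 120 genes and CON 2 the lowest of the 3 controls for 102, while PQQ-H 2 had the highest level of its group for 82. The count was 69 without CON 1, 68 without CON 3, 74 without PQQ-H 3, 73 without PQQ-H 4 and 41 without CON 1 and PQQ-H 1 together.

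**Figure D1:**
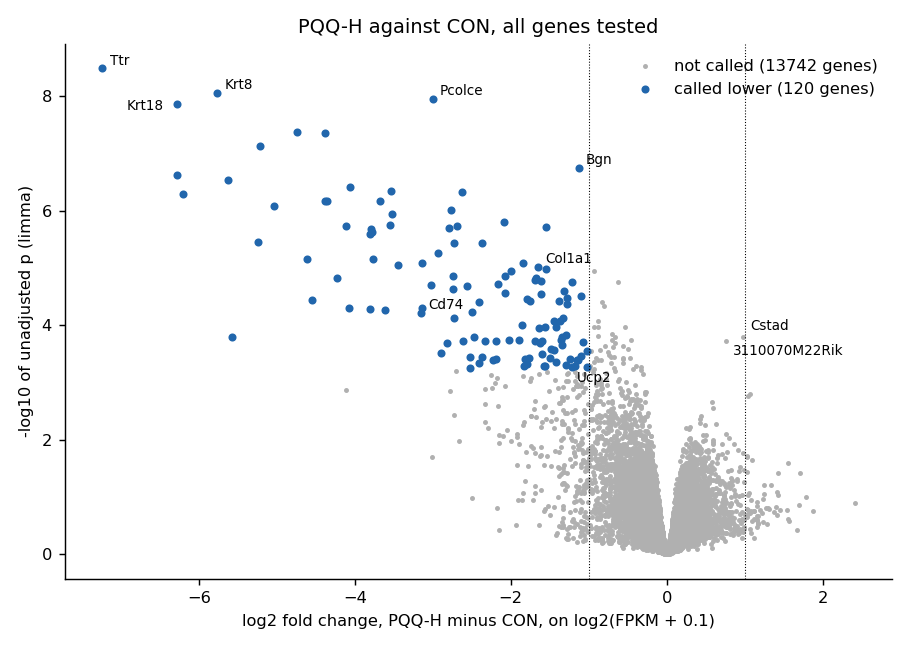
Each point is 1 of the 13862 genes tested, with the log2 fold change of PQQ-H minus CON on the log2(FPKM + 0.1) scale on the x axis and −log10 of the unadjusted limma p on the y axis. Blue points are the 120 genes called lower; dotted lines mark a log2 fold change of −1 and 1. No gene to the right of the dotted line at 1 was called, and the leftmost point, Ttr, lies at −7.24.

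Genes of the choroid plexus epithelium made up the deepest part of the difference. Of 40 genes on a list for this epithelium, 37 passed the filter, 27 were called lower (73.0%, against 0.866% of all genes tested), 0 were called higher and 10 were not called. All 37 had a log2FC below 0, against 55.9% of all genes, and their median was −3.45, against −0.03 over all genes. Called members such as Krt18, Kcne2, Folr1, Krt8, Aqp1 and Otx2 had a PQQ-H mean under 0.5 FPKM. They passed the filter through CON, and a gene that passes this way can only have a lower mean in PQQ-H. Ttr, Enpp2 and Igfbp2 were above 0.5 FPKM in both groups. The sum of the 37 genes was 4303, 2006 and 6335 FPKM in CON 1 to 3 and 179, 195, 180 and 173 FPKM in PQQ-H 1 to 4. The PQQ-H libraries were thus close to each other, whereas the CON libraries spread over a wide range. The count was 17 of 37 without CON 1 and PQQ-H 1. CON 2, the only control with a low striatal sum, also had the lowest choroid plexus sum of the controls. The part of the striatal genes in the choroid plexus difference was not tested.

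Among the secreted products, Ttr (transthyretin, the carrier of thyroxine and retinol-binding protein in cerebrospinal fluid) was at 3615, 1499 and 5315 FPKM in CON 1 to 3 and at 17.1, 30.02, 25.3 and 12.8 FPKM in PQQ-H 1 to 4. It was the gene with the lowest log2FC of all, −7.24 ± 0.45 (SE; adjusted p = 4.55e-05). Enpp2 (autotaxin, which makes lysophosphatidic acid) was at 370.0, 236 and 486 FPKM in CON and at 71.5, 60.2, 45.6 and 52.4 FPKM in PQQ-H. Its log2FC was −2.62 ± 0.26 (adjusted p = 0.000505), and the groups did not overlap. Igfbp2, a binding protein of insulin-like growth factors, was at 43.2, 31.5 and 63.7 FPKM in CON and between 8.66 and 11.7 FPKM in PQQ-H (log2FC −2.08, adjusted p = 0.00676). Its ligand gene Igf2 also fell (log2FC −2.20, adjusted p = 0.0395), from 16.1, 20.4 and 36.8 FPKM to between 3.08 and 6.51 FPKM. Lbp, which binds lipopolysaccharide, and F5, coagulation factor V, fell with a log2FC of −4.39 and −3.52. Sostdc1, a secreted antagonist of BMP and Wnt signals, was at 13.5, 8.70 and 17.9 FPKM in CON and at 0.877, 1.005, 1.52 and 3.54 FPKM in PQQ-H (log2FC −3.02, adjusted p = 0.00532).

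Among channels and transporters, Kcne2 (an accessory subunit of potassium channels) was at 9.82, 3.75 and 17.2 FPKM in CON and at 0.016, 0.017, 0.016 and 0 FPKM in PQQ-H. Every PQQ-H library had at most 3 reads on it, so the level was at least 208-fold lower, with the floor set at 3 reads in a library of the mean PQQ-H depth. Folr1, the folate receptor that carries folate into cerebrospinal fluid, was at 14.8, 6.62 and 25.4 FPKM in CON and at 0.0737, 0.176, 0.147 and 0 FPKM in PQQ-H (log2FC −6.20, adjusted p = 0.000517). The water channel Aqp1 was at 6.22, 2.77 and 8.33 FPKM in CON and at 0.0927, 0.112, 0.103 and 0.0954 FPKM in PQQ-H (log2FC −4.74, adjusted p = 0.000101). For these genes the lowest control was more than an order of magnitude above the highest PQQ-H library. The inward rectifier Kcnj13, the bicarbonate cotransporter Slc4a5, the chloride channel gene Clic6 and the STEAP family gene Steap1 fell with a log2FC of −4.61, −4.35, −4.23 and −4.54. The copper importer Slc31a1, which many cell types use, fell with a log2FC of −1.27 (adjusted p = 0.00801).

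Structural and regulatory genes of the epithelium were lower in the same way, with CON 3 highest and CON 2 lowest among the controls. Krt18 and Krt8, paired keratins of simple epithelia, had a log2FC of −6.28 and −5.77 (adjusted p = 4.86e-05 for each), and Krt8 was at least 142-fold lower. Krt18 was at 14.2, 6.38 and 25.3 FPKM in CON and at 0.122, 0.0441, 0.122 and 0.0209 FPKM in PQQ-H. Otx2, a homeodomain factor needed for choroid plexus identity, was at 1.68, 1.23 and 2.62 FPKM in CON and at 0.0501, 0.0653, 0.0400 and 0 FPKM in PQQ-H (log2FC −3.77, adjusted p = 0.00274). Wfdc2 was at least 44.8-fold lower. With Kcne2, Krt8 and Wfdc2 set at these bounds, the median of the list stayed at −3.45. It could not have moved, because these genes already lay below it.

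The 10 members that were not called included Kl, Trpm3, Prlr, Car12, Slc5a5, Slc29a4, Atp2b3 and Ezr, and several of them varied widely between libraries of the same group. Kl (Klotho, also made by neurons) was at 0.75, 13.1 and 27.4 FPKM in CON and at 1.34, 1.87, 4.56 and 13.9 FPKM in PQQ-H. Trpm3 (a calcium-permeable channel) was at 0.704, 3.77 and 4.38 FPKM in CON and at 1.001, 1.22, 1.90 and 2.08 FPKM in PQQ-H. CON 1 was the lowest library for both genes, unlike Ttr, where CON 2 was the lowest control. These genes, like the other uncalled members of the list, were chosen for mention after their values were seen, and their adjusted p were 0.841 and 0.766.

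**Figure D2:**
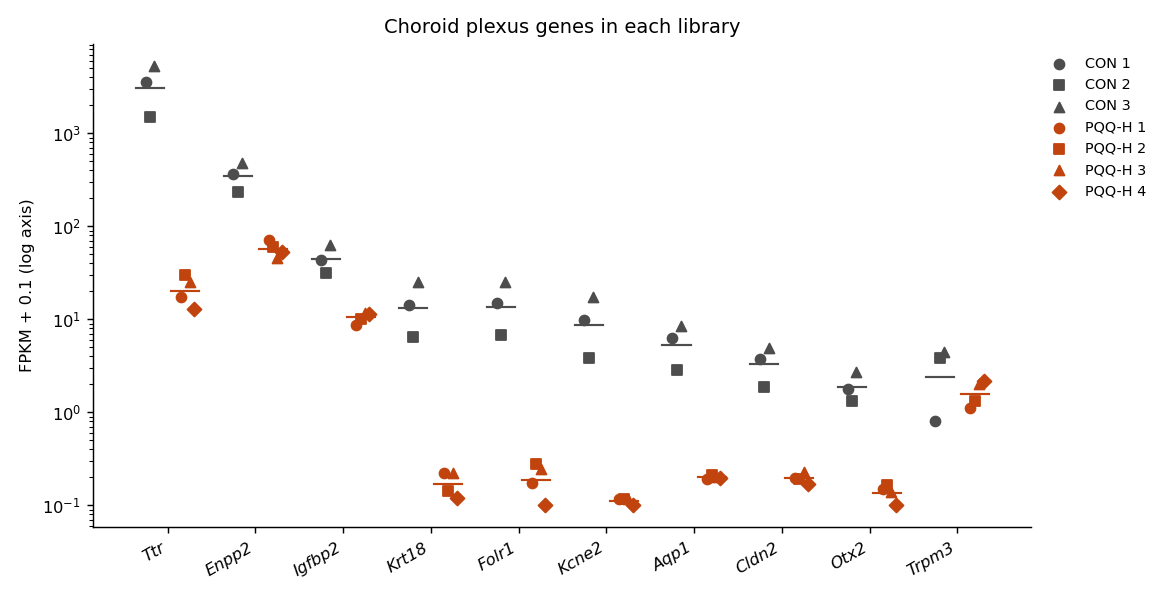
FPKM + 0.1 of 10 choroid plexus genes on a log axis, 1 point per library with its replicate number by shape, grey for the 3 CON and red for the 4 PQQ-H libraries; horizontal lines are the group means on the log scale. PQQ-H lies below CON for 9 genes without overlap, whereas the groups overlap for Trpm3.

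Some epithelial junction genes were lower in PQQ-H. Of 17 keratin, claudin and junction genes tested, 5 were called lower (29.4%, against 0.866% of all genes tested), 0 higher and 12 not called, with a median log2FC of −0.67. A log2FC below 0 was found for 15 of the 17, against 55.9% of all genes. An unadjusted p below 0.05 was found for 9 in the lower direction, against 8.0% of all genes. The called genes were Krt8, Krt18, Cldn2, Cldn3 and Epn3, and the count was 5 under every alternative but the fit without trend, which called 6. Krt8, Krt18 and Cldn2 are also on the choroid plexus list. The called genes had low levels in PQQ-H. Each of the 5 had a PQQ-H mean under 0.5 FPKM and so passed the filter through CON. Cldn2, the claudin that forms cation-permeable pores, was at 3.69, 1.77 and 4.87 FPKM in CON and at 0.0955, 0.0942, 0.130 and 0.0714 FPKM in PQQ-H (log2FC −4.06, adjusted p = 0.00048). Cldn3, a sealing claudin, was at least 37.4-fold lower. By contrast Cldn5, the claudin of brain endothelium, was at 38.7, 23.1 and 33.3 FPKM in CON and at 28.2, 44.7, 25.4 and 26.0 FPKM in PQQ-H, with a log2FC of −0.04 (adjusted p = 0.959).

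Ependymal and motile cilium genes were lower in PQQ-H to a smaller degree. Of 20 genes tested, 5 were called lower (25.0%, against 0.866% of all genes tested), 0 higher and 15 not called. A log2FC below 0 was found for 19 of 20, against 55.9% of all genes, with a median of −1.52. The sum was 67.8, 87.0 and 99.3 FPKM in CON 1 to 3 and 32.1, 51.3, 22.1 and 24.7 FPKM in PQQ-H 1 to 4, so the groups did not overlap. Foxj1, the transcription factor that switches on motile cilia, was at 7.64, 7.27 and 10.0 FPKM in CON and at 3.18, 3.41, 1.65 and 1.76 FPKM in PQQ-H (log2FC −1.75, adjusted p = 0.0083). Tekt1, a filament protein of axonemal microtubules, was at 2.67, 2.69 and 4.30 FPKM in CON and at 0.640, 0.995, 0.311 and 0.320 FPKM in PQQ-H (log2FC −2.41, adjusted p = 0.00847). PQQ-H 2 was the highest of its group for both. Dynlrb2, a dynein light chain, Ak7, an adenylate kinase of cilia, and Cfap126 fell with a log2FC of −2.62, −2.41 and −2.37, and the calls of Ak7 and Cfap126 were lost in 15 and 10 of 17 alternatives. Ak7 and Cfap126 had a PQQ-H mean under 0.5 FPKM and so passed the filter through CON. Ccdc153 had the lowest log2FC of the list, −4.12, but its CON levels of 6.88, 17.4 and 10.3 FPKM and its PQQ-H levels of 0.920, 3.08, 0.367 and 0 FPKM gave an adjusted p of 0.0874. The count rested on single libraries, since it was 0 without CON 3, 2 without CON 1, PQQ-H 3 or PQQ-H 4, 1 without CON 1 and PQQ-H 1, and 10 without PQQ-H 2.

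Stromal genes of the meninges, of which the plexus also has a share, were lower as a group while few passed the test alone. Of 25 meningeal and perivascular fibroblast genes tested, 3 were called lower (12.0%, against 0.866% of all genes tested), 0 higher and 22 not called. Their median log2FC was −1.06, with 24 of 25 below 0, against 55.9% of all genes. Col1a1 and Col1a2, the chains of type I collagen, were tightly grouped. Col1a1 was at 1.29, 1.34 and 1.17 FPKM in CON and at 0.321, 0.380, 0.311 and 0.335 FPKM in PQQ-H (log2FC −1.65 ± 0.22, adjusted p = 0.00338). Col1a2 was at 2.43, 2.63 and 2.25 FPKM in CON and at 0.637, 1.12, 0.571 and 0.683 FPKM in PQQ-H (log2FC −1.61 ± 0.23, adjusted p = 0.00486). In both genes, unlike the epithelial ones, CON 2 was the highest control. Scx, a transcription factor of tendon and other dense connective tissue, was the remaining called gene (log2FC −1.81, adjusted p = 0.0395), and its call was lost in 13 of 17 alternatives, where the adjusted p reached 0.237. Of 17 collagen genes tested, 6 were called lower (35.3%, against 0.866% of all genes tested), namely Col1a1, Col1a2, Col8a1, Col8a2, Col9a3 and Col18a1. None was called higher, 11 were not called, and the median log2FC was −0.87. Col1a1, Col8a1, Col8a2 and Col18a1, like Scx, had a PQQ-H mean under 0.5 FPKM and so passed the filter through CON. The collagen count was 1 without CON 1 and PQQ-H 1, 3 with a pseudocount of 1 and 4 without CON 3. Col8a1 and Col8a2 encode the short-chain collagen VIII, and they fell with a log2FC of −3.45 and −3.62. Outside these lists, Pcolce, which speeds the removal of the procollagen C-propeptide, was at 14.4, 8.98 and 18.8 FPKM in CON and at 1.37, 1.75, 1.42 and 1.88 FPKM in PQQ-H (log2FC −3.003 ± 0.21, adjusted p = 4.86e-05). The matrix proteoglycan gene Bgn had the smallest SE of the called genes named here, at 10.6, 9.48 and 11.3 FPKM in CON and at 4.65, 5.39, 4.92 and 4.03 FPKM in PQQ-H (log2FC −1.13 ± 0.10, adjusted p = 0.00031). The fibroblast count was 0 without CON 1 and PQQ-H 1 and 0 with a pseudocount of 1. The choroid plexus genes were also lower in PQQ-H, and Col8a1 and Col8a2 are on that list too. The fibroblast sum was lowest in CON 1 (727 FPKM) and the choroid plexus sum in CON 2 (2006 FPKM). CON 2 was also the lowest control for Pcolce, Bgn, Col8a1, Col9a3 and Col18a1, but not for Col1a1, Col1a2, Col8a2 or Scx. The part of the choroid plexus genes was not tested.

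Antigen presentation genes of MHC class II were lower in PQQ-H. MHC class II molecules display peptides to helper T cells, and in brain they are found mainly on border macrophages and dendritic cells of plexus and meninges and on activated microglia. Of 7 genes tested, 3 were called lower (42.9%, against 0.866% of all genes tested), 0 higher and 4 not called, with a median log2FC of −2.07. Cd74, the invariant chain that fills the groove during assembly, was at 14.9, 9.18 and 18.6 FPKM in CON and at 1.005, 4.67, 0.622 and 1.43 FPKM in PQQ-H (log2FC −3.15 ± 0.51, adjusted p = 0.0116). H2-Ab1, a beta chain, was at 4.98, 3.19 and 5.81 FPKM in CON and at 0.215, 1.32, 0.190 and 0.490 FPKM in PQQ-H (log2FC −3.14, adjusted p = 0.0102). H2-Aa, an alpha chain, was at 5.29, 3.41 and 6.35 FPKM in CON and at 0.176, 1.83, 0.403 and 0.648 FPKM in PQQ-H (log2FC −2.89, adjusted p = 0.0359), and its call was lost in 9 of 17 alternatives. CON 2 was the lowest control and PQQ-H 2 the highest treated library for each of the 3. H2-Eb1 had the same order (log2FC −2.07), and its adjusted p was 0.0782. The lysosomal protease gene Ctss, which trims the invariant chain and is used by microglia at large, was at 106, 57.6 and 102 FPKM in CON and at 86.2, 109.6, 73.0 and 76.1 FPKM in PQQ-H (adjusted p = 0.995). The count for the list was 0 without CON 1, without CON 3 and without CON 1 and PQQ-H 1 together. The choroid plexus sums moved with the called genes, with CON 2 the lowest control in both, and their part was not tested. Of 14 MHC class I genes tested, 1 was called lower (7.14%, against 0.866% of all genes tested), 0 higher and 13 not called. The called gene was H2-Q4 (log2FC −1.34, adjusted p = 0.0284). All 14 were below 0, against 55.9% of all genes, with a median of −0.58. H2 genes are near-identical copies in parts, so reads may be divided among them in ways that these values do not show.

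Interferon response genes were lower throughout, by smaller steps. Of 39 genes tested, 7 were called lower (17.9%, against 0.866% of all genes tested), 0 higher and 32 not called. All 39 had a log2FC below 0, against 55.9% of all genes, with a median of −0.76. An unadjusted p below 0.05 was found for 28 of them, against 8.0% of all genes in the lower direction. The sum was 298, 184 and 371 FPKM in CON 1 to 3 and 126, 164, 98.7 and 116 FPKM in PQQ-H 1 to 4. Bst2 (tetherin, which holds budding virus at the membrane) was at 24.8, 12.4 and 35.6 FPKM in CON and at 5.28, 6.49, 4.57 and 5.83 FPKM in PQQ-H (log2FC −1.996 ± 0.27, adjusted p = 0.00374). Ifi27l2a was at 10.4, 4.51 and 15.3 FPKM in CON and at 0.902, 2.55, 0.675 and 1.62 FPKM in PQQ-H (log2FC −2.73, adjusted p = 0.0138). Irf7, the factor that amplifies type I interferon production, was at 3.79, 2.62 and 4.82 FPKM in CON and at 1.19, 1.47, 0.602 and 0.862 FPKM in PQQ-H (log2FC −1.79, adjusted p = 0.00811). CON 2 was again the lowest control for these 3 genes. Ifitm3, which blocks virus entry at endosomes, had the highest level of the called members, at 59.3, 29.3 and 76.7 FPKM in CON and at 12.9, 30.2, 8.68 and 12.1 FPKM in PQQ-H (log2FC −1.84, adjusted p = 0.0471), and its call was lost in 13 of 17 alternatives. Lgals3bp, Tgtp1 and Oasl2 fell with a log2FC of −1.84, −2.50 and −1.28, and Tgtp1 has a near-identical neighbor, Tgtp2, which was under the filter. Tgtp1 had a PQQ-H mean under 0.5 FPKM and so passed the filter through CON. The count was 4 without CON 1, 2 without CON 3, 13 without CON 2 and 0 without CON 1 and PQQ-H 1 together. The choroid plexus sums moved with those of this list, and their part in the result was not tested.

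Promoters of interferon genes are shown because an element known from such genes was in a larger share of this list than of all promoters, though not in most members. The core of the interferon-stimulated response element bound by IRF factors, read here as GAAA and a second GAAA with any 2 bases between them, was searched on both strands of the 250 bases before each start, using RefSeq promoters of build GRCm38.p6, which matched 10908 of the 13862 genes. It was found in 312 of 10908 promoters (2.86%), in 16 of 33 interferon genes with a promoter (48.5%) and in 3 of the 94 called genes with one (3.19%), namely Bst2, Tgtp1 and Tgfbi. The 16 interferon genes with the match had a median log2FC of −0.79 with 2 called lower, and the 17 without it −0.66 with 4 called lower. Stretches are given 5′ to 3′ on the gene's strand with the matches in capitals, which overlap where they run together, for the called members of the list with a match.
Bst2, chr8:71537537-71537652, minus strand: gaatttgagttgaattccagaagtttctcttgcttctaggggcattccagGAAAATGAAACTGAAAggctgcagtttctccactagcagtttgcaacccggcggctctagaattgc
Tgtp1, chr11:48992264-48992373, minus strand: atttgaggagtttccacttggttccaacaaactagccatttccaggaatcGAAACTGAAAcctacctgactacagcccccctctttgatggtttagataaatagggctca
Bst2 held a pair of overlapping matches and Tgtp1 held 1, and the log2FC of these genes was −1.996 and −2.50. Oas1a (a sensor of double-stranded RNA) also had a match, with a log2FC of −1.54 (adjusted p = 0.369) and overlapping groups. Other letters were searched in the same windows. The half-site GTTGCC of RFX factors, which drive cilium genes, was in 1378 promoters overall (12.6%) and in 5 of 14 cilium genes (35.7%). The OTX core GGATTA was in 668 promoters (6.12%) and in 2 of 29 choroid plexus genes (6.9%), and CCAAT was in 4333 promoters (39.7%) and in 4 of 5 class II genes. A match is a description of the letters only.

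**Figure D3:**
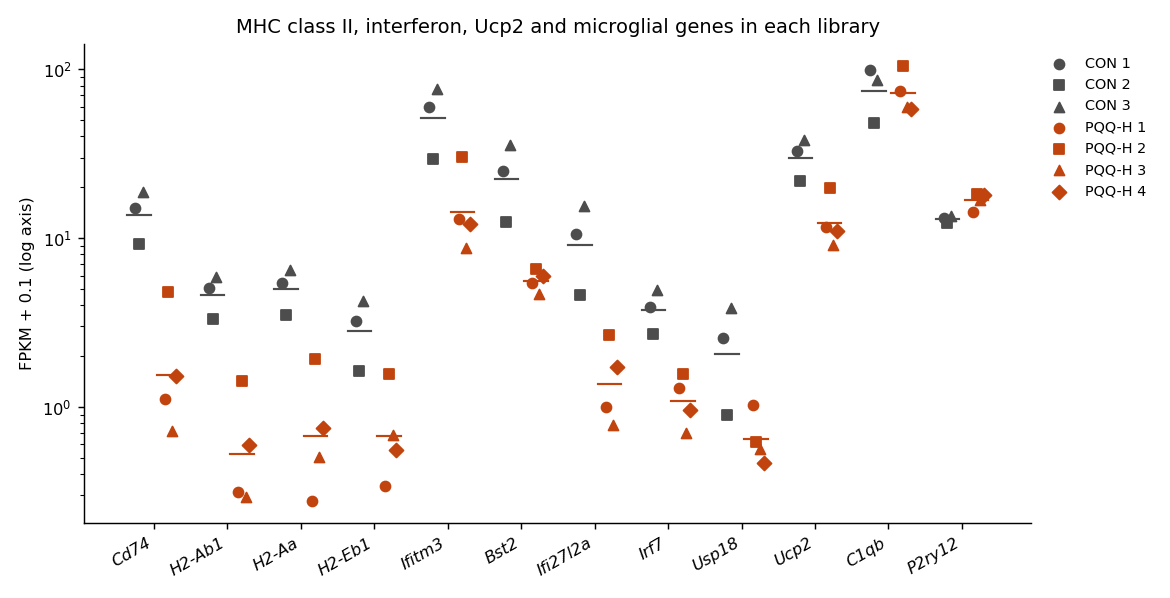
FPKM + 0.1 of 12 genes on a log axis, 1 point per library with its replicate number by shape, grey for the 3 CON and red for the 4 PQQ-H libraries; horizontal lines are the group means on the log scale. Cd74, H2-Ab1 and H2-Aa separate the groups with PQQ-H 2 nearest to CON, Ifitm3 and Usp18 overlap, and of the microglial genes C1qb overlaps and P2ry12 lies above CON.

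Homeostatic markers of microglia did not follow the MHC class II and interferon genes. Of 19 homeostatic microglial genes tested, 0 were called and the median log2FC was 0.04, with 0 at an unadjusted p below 0.05 in the lower and 2 in the higher direction. P2ry12, the purinergic receptor of ramified microglia, was at 12.99, 12.1 and 13.3 FPKM in CON and at 14.1, 18.1, 16.7 and 18.0 FPKM in PQQ-H (log2FC 0.38, adjusted p = 0.323). The median of the list turned to −0.12 without CON 2 and −0.05 without PQQ-H 2. Of 19 genes of disease-associated microglia, 1 was called lower (5.26%, against 0.866% of all genes tested) and 18 were not, with a median of −0.20. The called gene was Lgals3 (galectin-3, log2FC −2.81, adjusted p = 0.0268). Without the size limit, 2 were lower at an adjusted p below 0.05. An unadjusted p below 0.05 was found for 5 in the lower and 0 in the higher direction. Lgals3 was at 3.80, 1.99 and 5.61 FPKM in CON and at 0.728, 0.922, 0.182 and 0.187 FPKM in PQQ-H. The class markers Apoe and Trem2 had a log2FC of −0.20 and 0.03 (adjusted p = 0.745 and 0.981). Of 14 complement genes, 0 were called, with a median of −0.27. A log2FC below 0 was found for 13 of them. An unadjusted p below 0.05 was found for 6 in the lower and 0 in the higher direction, against 8.0% and 1.83% of all genes. Clu, with the highest level among them, was at 568, 446 and 629 FPKM in CON and at 501, 488, 396 and 386 FPKM in PQQ-H (log2FC −0.30, adjusted p = 0.469). Most border macrophage and leukocyte markers were under the filter, with 5 of 22 tested and 0 called.

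The genes that the study's text places downstream of SIRT1, a NAD-dependent deacetylase, were chosen on these same libraries and so give no independent evidence of a direction. Of 14 tested, 10 were called lower (71.4%, against 0.866% of all genes tested), 0 higher and 4 not called, with a median log2FC of −1.95. The called genes were Cd74, Gstm2, H2-Ab1, Ifitm3, Irf7, Lgals3, Lgals3bp, Scx, Tgtp1 and Ucp2, so MHC class II and interferon genes were 6 of the 10. Scx and Tgtp1 had a PQQ-H mean under 0.5 FPKM and so passed the filter through CON. Ucp2, an inner-membrane carrier that can dissipate the proton gradient and is used by immune and some epithelial cells, was at 32.6, 21.6 and 37.9 FPKM in CON and at 11.5, 19.6, 8.96 and 10.9 FPKM in PQQ-H. Its log2FC was −1.29 ± 0.27 with an adjusted p of 0.047, and the call was lost in 13 of 17 alternatives, where the adjusted p ran from 0.00753 to 0.31. Sfrp5, a secreted Wnt antagonist, was at 6.04, 1.79 and 2.92 FPKM in CON and at 0.778, 0.861, 0.105 and 0.200 FPKM in PQQ-H (log2FC −2.78, adjusted p = 0.0912). H2-Eb1, Rtp4 and Usp18 were the others not called. The list count was 3 without CON 1, 2 without CON 3, 12 without CON 2, 12 without PQQ-H 2 and 0 without CON 1 and PQQ-H 1 together. The choroid plexus sums given above moved with these genes, and their part was not tested.

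Sirt1 itself was at 2.57, 3.04 and 2.77 FPKM in CON and at 2.99, 3.17, 3.41 and 3.04 FPKM in PQQ-H, with a log2FC of 0.17 ± 0.10 (adjusted p = 0.638). The groups overlapped, since CON 2 lay above PQQ-H 1. None of the 7 sirtuin genes was called, and their median was 0.08. Sirt3, the main mitochondrial deacetylase, had a log2FC of 0.05 (adjusted p = 0.914). Factors of mitochondrial biogenesis had 0 of 15 called and a median of 0.01, including Tfam, which packages mitochondrial DNA, at 9.45, 10.0 and 9.35 FPKM in CON and at 8.57, 8.75, 9.83 and 9.71 FPKM in PQQ-H.

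No gene on the lists of oxidative phosphorylation was called. Nuclear subunits of complex I had 0 of 36 called with a median log2FC of −0.08, and those of complexes II to V had 0 of 40 with a median of −0.09. The fitted log2FC of the 36 complex I genes ran from −0.24 to 0.08. Ndufb9 was at 367, 259.8 and 375 FPKM in CON and at 295, 391, 248 and 308 FPKM in PQQ-H (log2FC −0.10 ± 0.155, adjusted p = 0.863). The 13 subunits encoded by mitochondrial DNA all had a log2FC above 0, with a median of 0.19 and 0 called. ND3, a complex I subunit, had the lowest p among them at 119, 114 and 116 FPKM in CON and at 145, 173, 148 and 159.8 FPKM in PQQ-H, without overlap (log2FC 0.42 ± 0.12, adjusted p = 0.173). Levels of COX1 were between 13400 and 18010 FPKM in CON and between 14850 and 19160 FPKM in PQQ-H. Respiratory-chain isoforms outside the lists were called as well, Cox8b (log2FC −3.80, adjusted p = 0.00109) and Cox6b2 (log2FC −1.62, adjusted p = 0.0266), the latter named after its values were seen. Cox8b, an isoform of complex IV known from heart and skeletal muscle, was at 22.03, 8.64 and 31.8 FPKM in CON and at 1.10, 1.10, 1.02 and 1.77 FPKM in PQQ-H. Its ubiquitous counterpart Cox8a was at 784, 579 and 839 FPKM in CON and at 693, 779.5, 726 and 742 FPKM in PQQ-H (log2FC 0.02, adjusted p = 0.964). Mitochondrial dynamics genes had 0 of 37 called with a median of −0.03, which became 0.03 with median-of-ratios scaling.

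Among antioxidant genes 2 of 39 were called lower (5.13%, against 0.866% of all genes tested), 0 higher and 37 not called, with a median log2FC of −0.17. Gpx8, a peroxidase of the endoplasmic reticulum, was at 9.83, 5.95 and 13.6 FPKM in CON and at 1.95, 2.59, 1.19 and 1.40 FPKM in PQQ-H (log2FC −2.38, adjusted p = 0.00162). Gstm2, a glutathione transferase, was at 4.59, 3.17 and 5.97 FPKM in CON and at 1.05, 1.38, 0.606 and 1.02 FPKM in PQQ-H (log2FC −2.07, adjusted p = 0.00442). The NRF2 gene Nfe2l2 and its targets Nqo1 and Hmox1 were not called, with a log2FC of −0.35, −0.93 and 0.20 and adjusted p of 0.622, 0.118 and 0.726. No gene was called among 19 of glycolysis (median −0.03), 44 cytosolic ribosomal proteins (median −0.04), 25 of heat shock and the unfolded protein response (median −0.11), 14 of senescence and p53 (median −0.24) or 21 of cholesterol synthesis and uptake (median −0.17). For these 5 lists the smallest adjusted p lay between 0.0737 and 0.809.

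Other glia and vessels had few called genes. Astrocyte genes had 1 of 21 called lower (4.76%, against 0.866% of all genes tested). The called gene was Vim, an intermediate filament gene that ependymal and endothelial cells also use. It was at 48.5, 37.6 and 48.4 FPKM in CON and at 21.0, 34.9, 17.9 and 17.2 FPKM in PQQ-H (log2FC −1.03, adjusted p = 0.0471). The call of Vim was lost in 14 of 17 alternatives, where the adjusted p reached 0.363. The astrocytic filament gene Gfap had a log2FC of 0.02 (adjusted p = 0.98). Oligodendrocyte genes had 1 of 22 called lower (4.55%, against 0.866% of all genes tested), Bmp4 (log2FC −1.42, adjusted p = 0.0179). All 22 were below 0, against 55.9% of all genes, with a median of −0.32. Bmp4, a growth factor that precursors and other cells secrete, was at 1.08, 0.786 and 1.42 FPKM in CON and at 0.373, 0.360, 0.317 and 0.298 FPKM in PQQ-H. Its PQQ-H mean was under 0.5 FPKM, so it passed the filter through CON. The myelin gene Mbp was higher in the libraries with high striatal sums, at 982, 325 and 761 FPKM in CON and at 895, 655, 299 and 364 FPKM in PQQ-H (log2FC −0.31, adjusted p = 0.849). The part of the striatal genes was not tested. Brain endothelium and mural cell genes had 0 of 25 called and a median of −0.17, with Pltp, a phospholipid transfer protein, at an adjusted p of 0.033 and a log2FC of −0.97 that stayed short of the size limit. Blood genes had 0 of 6 called, and Hbb-bs, a beta globin, was at 186, 59.8 and 108 FPKM in CON and at 83.3, 346, 69.0 and 76.6 FPKM in PQQ-H. PQQ-H 2 was thus the highest library for globin as well as the highest of its group for most called genes, and the part of blood was not tested.

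**Figure D4:**
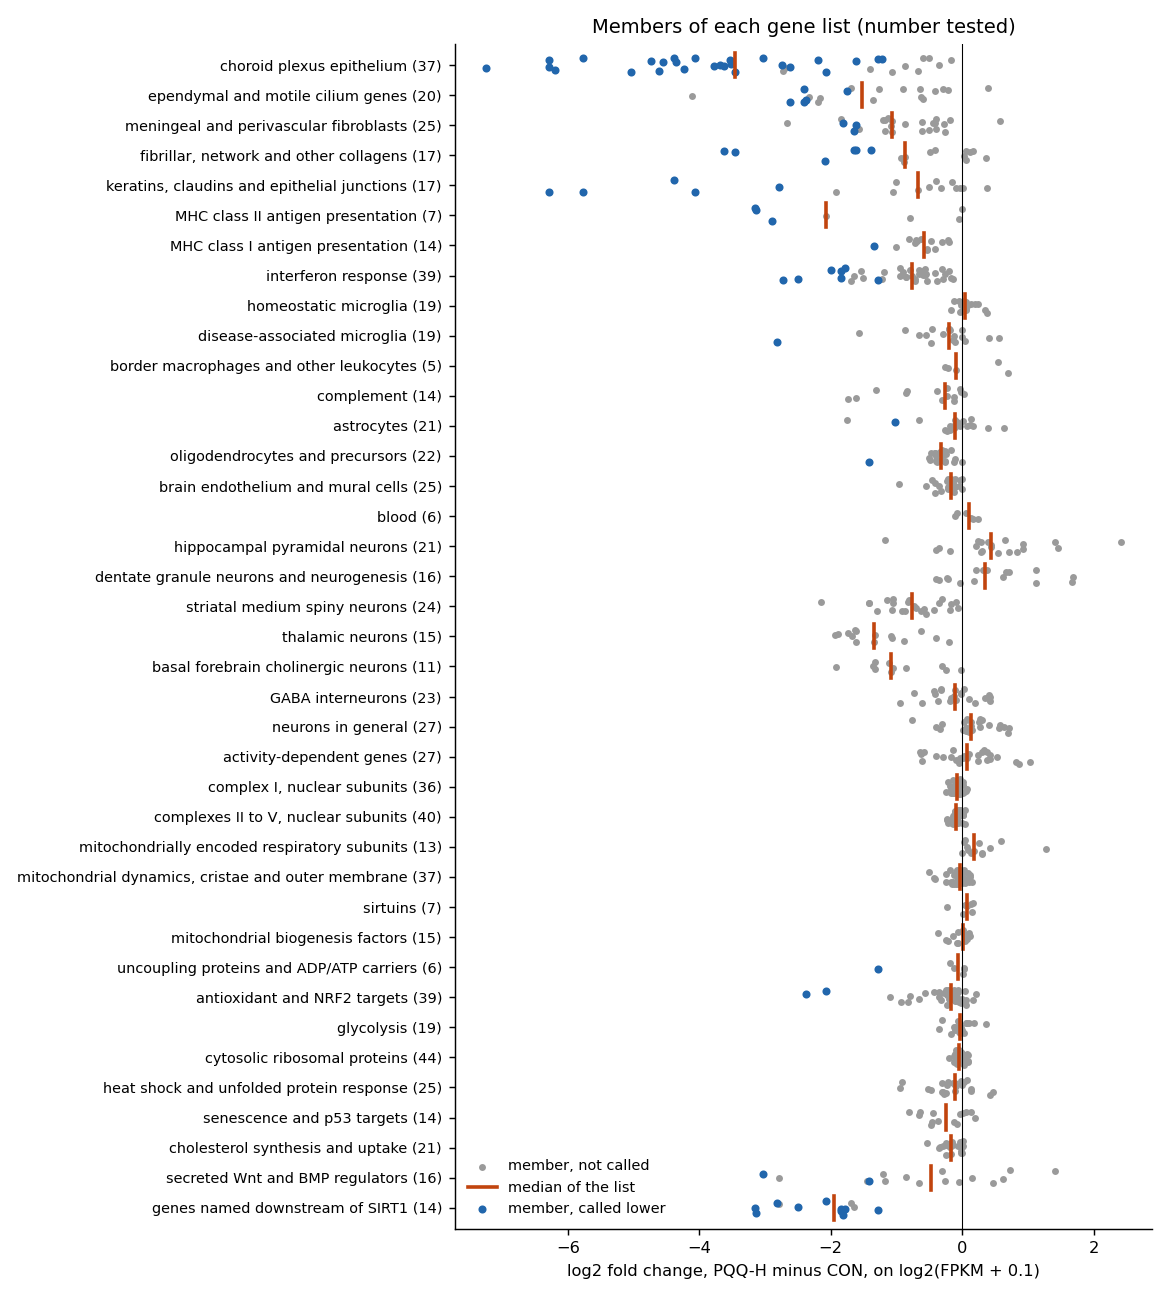
Each row is 1 gene list with its number of genes tested, each point a member at its log2 fold change of PQQ-H minus CON on the log2(FPKM + 0.1) scale, blue if called lower and grey if not; the red bar is the median of the list. The medians run from −3.45 for choroid plexus epithelium to 0.44 for hippocampal pyramidal neurons, and the lists of mitochondrial, ribosomal and glycolytic genes sit close to 0.

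Neuronal genes were not called in any list, and regional markers differed widely between libraries of 1 group. Pyramidal neuron genes had a median log2FC of 0.44 over 21 genes and dentate genes 0.35 over 16. Neurod6, a factor of CA pyramidal neurons, was at 2.30, 78.9 and 31.6 FPKM in CON and at 18.6, 22, 138 and 97.9 FPKM in PQQ-H (log2FC 1.42 ± 1.05, adjusted p = 0.734). Prox1, the factor that specifies dentate granule neurons, was at 1.5, 9.69 and 2.64 FPKM in CON and at 3.12, 2.26, 13.2 and 9.35 FPKM in PQQ-H. CON 2, PQQ-H 3 and PQQ-H 4, the libraries with low striatal sums, were the highest for both genes. Without CON 1 the dentate median became −0.22. Ppp1r1b (DARPP-32) and Penk (enkephalin), products of medium spiny neurons, were at 25.5 to 1235 FPKM and 14.8 to 994 FPKM in CON, and at 16.2 to 934 FPKM and 13.5 to 759.7 FPKM in PQQ-H. The striatal list had 0 of 24 called and a median of −0.77, which turned to 0.30 without CON 1 and to 0.10 without PQQ-H 3. The thalamic list had 0 of 15 called and a median of −1.34, with sums of 248, 197 and 66.6 FPKM in CON 1 to 3 and between 63.8 and 70.7 FPKM in PQQ-H. CON 1 and CON 2 thus had higher thalamic sums than the other libraries, and 5 of the 15 genes were called without CON 3. All 15 had a log2FC below 0, against 55.9% of all genes. An unadjusted p below 0.05 was found for 10 of them in the lower direction, against 8.0% of all genes. PQQ-H lay below CON without overlap for 5, against 5.81% of all genes. Prkcd, a kinase of thalamic relay neurons, was at 55.3, 32.2 and 3.11 FPKM in CON and at 2.83, 3.94, 10.0 and 9.82 FPKM in PQQ-H. Basal forebrain cholinergic genes had 0 of 11 called (median −1.09), GABA interneuron genes 0 of 23 (median −0.10), general neuronal genes 0 of 27 (median 0.13) and activity-dependent genes 0 of 27 (median 0.08). Snap25, a SNARE protein of nerve terminals, was at 643, 802 and 677 FPKM in CON and at 708, 720.0, 817 and 857 FPKM in PQQ-H (log2FC 0.13 ± 0.10, adjusted p = 0.737).

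**Figure D5:**
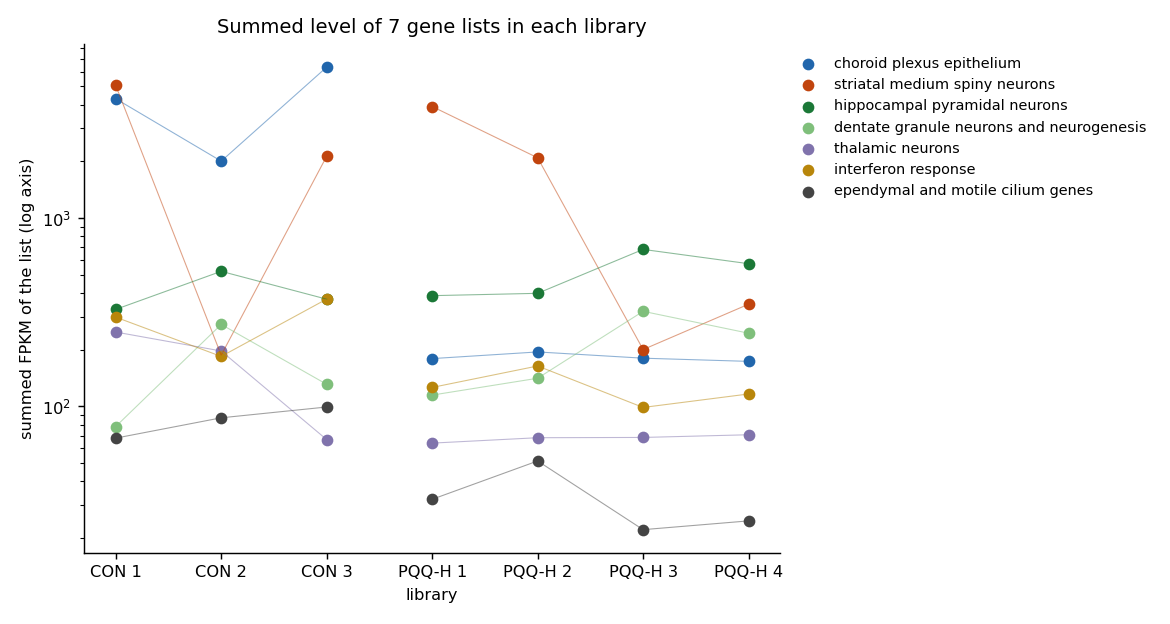
Summed FPKM of 7 gene lists on a log axis in each of the 3 CON and 4 PQQ-H libraries, 1 color per list, with thin lines joining the libraries of a group only to guide the eye. The choroid plexus sum is 2006 to 6335 in CON and 173 to 195 in PQQ-H, while the striatal sum is high in CON 1, CON 3, PQQ-H 1 and PQQ-H 2.

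Of the 120 called genes, 64 were in none of the lists, with a median log2FC of −1.69. Ecrg4, a secreted peptide precursor abundant in choroid plexus, led them by level, at 49.4, 23.3 and 74.8 FPKM in CON and at 0.737, 1.98, 0.703 and 0.362 FPKM in PQQ-H (log2FC −5.63, adjusted p = 0.000408). Defb11, a beta-defensin gene, was at least 20.3-fold lower, Sult1c2, a sulfotransferase, at least 38.7-fold, Smim22 at least 13.3-fold and Frmpd1os at least 12.4-fold. The transcripts 2900040C04Rik and Prr32 had a log2FC of −5.58 and −5.21, and the call of the former was lost in 9 of 17 alternatives. Slc16a8, a lactate transporter known from retinal pigment epithelium and choroid plexus, was at 1.41, 0.6001 and 2.21 FPKM in CON and at most 0.0482 FPKM in PQQ-H (log2FC −3.55, adjusted p = 0.00108). Abca4, a retinoid flippase, and Sema3b, a secreted guidance cue, fell with a log2FC of −2.94 and −2.77. Drc7, a part of the ciliary dynein regulatory complex, was at 3.12, 3.07 and 6.26 FPKM in CON and at 0.209, 0.310, 0.285 and 0.0489 FPKM in PQQ-H (log2FC −3.78, adjusted p = 0.00117). Named after their values were seen, Cdkn1c, an inhibitor of cyclin-dependent kinases, Trpv4, an osmosensitive calcium channel, Msx1, a homeodomain factor, and Anxa1, a phospholipid-binding protein, fell with a log2FC of −2.18, −2.16, −2.03 and −2.48. The called genes had a median CON level of 3.59 FPKM, against 6.30 FPKM over all genes tested, and 61 of the 120 had a PQQ-H mean under 0.5 FPKM, so these had passed the filter through CON. The lowest maximum over the 7 libraries was 56 reads.

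Few genes were higher in PQQ-H at an adjusted p below 0.05. A log2FC above 1 was found for 61 genes (0.44%), and none of them was called. Cstad was at 0.758, 1.28 and 0.767 FPKM in CON and at 1.84, 2.08, 1.77 and 1.86 FPKM in PQQ-H (log2FC 0.98 ± 0.18, adjusted p = 0.0244). The transcript 3110070M22Rik was at 0.874, 0.927 and 0.821 FPKM in CON and at 1.46, 1.64, 1.33 and 1.76 FPKM in PQQ-H (log2FC 0.76 ± 0.14, adjusted p = 0.0255). The groups did not overlap for either gene, and both stayed short of a log2FC of 1. Among the next by p, Lmo3, a LIM-domain cofactor, was at 18.4, 25.4 and 24.7 FPKM in CON and at 34.9, 31.6, 34.3 and 36.8 FPKM in PQQ-H (log2FC 0.60, adjusted p = 0.138). Gpr27 (log2FC 0.44), Ptbp3 (0.43), BC037704 (1.05), Gm43305 (1.06) and LOC115487949 (0.58) likewise showed no overlap, with adjusted p between 0.096 and 0.185. Malat1, a nuclear long noncoding RNA, was at 13.9, 18.1 and 24.0 FPKM in CON and at 31.01, 22.3, 29.96 and 30.6 FPKM in PQQ-H (log2FC 0.63, adjusted p = 0.192), with an overlap. Over all genes, 185 lay above CON without overlap (1.33%).

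The doses were compared directly in the same fit. Between PQQ-H and PQQ-L, 0 genes were called in either direction, the smallest adjusted p was 0.584, and at an unadjusted p below 0.05 there were 617 lower (4.45%) and 499 higher (3.60%) genes. PQQ-L vs. CON gave 71 genes called lower (0.512%) and 0 higher, and both doses share the 3 CON libraries. The doses differed in striatal genes, whose list had a median log2FC against CON of −0.77 in PQQ-H and −2.80 in PQQ-L. Ppp1r1b was between 18.75 and 57.9 FPKM in PQQ-L and at 934, 486.5, 16.2 and 49.84 FPKM in PQQ-H 1 to 4. The part of the striatal genes in the comparison of the doses was not tested. Ttr had a mean of 78.1 ± 28.2 FPKM (SD, n = 5) in PQQ-L and 21.3 ± 7.80 FPKM (SD, n = 4) in PQQ-H, a log2FC of −1.86 between them (adjusted p = 0.584). Drc7, with the lowest unadjusted p of that comparison, had a log2FC of −1.91 between doses, and Prr32 −1.85. In the choroid plexus list 15 of 37 genes, in the cilium list 9 of 20 and in the cholesterol list 10 of 21 had an unadjusted p below 0.05 between doses, none of which held after adjustment. The median log2FC against CON of the choroid plexus list was −3.45 in PQQ-H and −2.31 in PQQ-L, that of the cilium list −1.52 and −0.70, and that of the interferon list −0.76 and −0.82.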

How the data were processed

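Total hippocampal RNA was sequenced on an Illumina NovaSeq instrument. The authors filtered reads with fastp, mapped them with HISAT2 (mm39 per the submitters' notes), counted them with HTSeq-count and tested counts with DESeq2. They deposited FPKM per gene for 12 libraries. Program versions, annotation and strand setting are not given in the sources used here. DESeq2 was not repeated; whole reads recovered from the deposited FPKM values were tested with voom of limma as an alternative.

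The groups were compared by limma 3.58.1 (R 4.3.3) after a log2(FPKM + 0.1) transform, using its moderated trend test on 12 libraries in 3 groups. Genes entered at a mean of 0.5 FPKM or more over CON and PQQ-H. Genes were called at |log2FC| > 1 and a Benjamini-Hochberg adjusted p below 0.05. Fold changes on this scale understate those of low genes. SE is that of limma.

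Whole reads were recovered from ratios of FPKM between libraries for 100% of 25563 genes above 0 in at least 2 libraries (tolerance 0.02 reads), and both steps were tested on simulated data. Floors cover counting error only. No 2 libraries were duplicates (lowest chi-square per degree of freedom 31.39 within CON and PQQ-H).

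The 39 gene lists and the comparison itself were chosen with earlier results of these data known. Named genes were the 15 called genes with the largest |log2FC|, the higher genes with an adjusted p below 0.05 and the 10 with the smallest p, up to 4 called members per list (otherwise the 2 with the highest FPKM), Sirt1 and genes the study's text places downstream of it, the 5 called genes highest in CON, 15 called genes outside the lists, the 10 smallest adjusted p and the 10 smallest p between doses. A few may be left out; others are described as named after their values were seen or are uncalled members given for contrast. Symbols are those of the table. Python 3.11.15, numpy 2.4.6, pandas 2.3.3, scipy 1.17.1 and matplotlib 3.10.9 were also used.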

Additional observations from a re-analysis of the deposited data

Results flagged for a closer look

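Among 165 values checked in the 4 PQQ-H libraries (126 named genes and 39 list sums, on the log2 scale), 11 had 1 library farther from the others than Dixon's 95% limit allows, and chance gives about 1 in 20. PQQ-H 4 was the lowest library at 0 FPKM for Cldn3, Kcne2, Smim22 and Wfdc2, where the other 3 had 1 read each. These flags rest on a difference of 1 read. PQQ-H 4 was the highest for Cox8b (1.77 FPKM), Steap1 (0.529 FPKM, next 0.0762 FPKM) and the summed heat shock and unfolded protein response genes (2160.0 FPKM, next 1960.0 FPKM). PQQ-H 2 was the highest for Hbb-bs (346 FPKM, next 83.3 FPKM) and C77080 (1.53 FPKM, next 0.849 FPKM), and the lowest for Malat1 (22.3 FPKM). PQQ-H 3 was the highest for Defb11 at 0.0821 FPKM, which was 1 read, with the others at 0.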

How the results depend on the processing

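The 120 genes were lower in PQQ-H under all 17 alternatives, and the called count was 57 with only the 7 libraries, which leaves fewer libraries to estimate the spread, and 41 without CON 1 and PQQ-H 1, chosen after seeing the data. Leaving out 1 library at a time gave 68 to 159 calls. With a replicate block by number the count was 51, but the numbers did not pair the samples, since same-numbered CON and PQQ-H libraries had correlations of their deviations of 0.707, −0.621 and −0.235, and CON 2 correlated best with PQQ-H 3 (0.782). One gene was called higher with a pseudocount of 0.01, with all genes above 0 and with median-of-ratios scaling, and 0 to 2 when 1 library was left out. PQQ-H vs. PQQ-L gave 0 calls with each PQQ-H or PQQ-L library left out in turn and under the other settings run for it; the fit of only the 7 libraries holds no PQQ-L library. Other counts were 90 with a pseudocount of 1, 105 with 0.01, 170 with all genes above 0, 101 with median-of-ratios scaling, 123 without trend, 91 with the letter of the library name as covariate and 123 with voom. Of 57 named genes that were called, 22 were called under all 17 alternatives, and 0 of 126 named genes reversed a call. Of 39 list medians, 12 changed sign under some alternative. With only the 7 libraries the called members were 23 for choroid plexus, 0 for cilium, 0 for interferon, 0 for MHC class II and 1 for the genes placed downstream of SIRT1. Depth limited the genes with at most 3 reads in PQQ-H, whose folds are bounds.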
